A study of Mus musculus with 6 samples.

Results

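The genes described here encode lysosomal proteins other than the cathepsins: hydrolases and their cofactors, membrane proteins, the subunits of the proton pump of the lysosome, and the transcription factors Tfeb and Tfe3. They were taken by symbol as a fixed set of 40 genes, and each of the 40 symbols matched 1 of the 38924 gene identifiers in the count tables. Microglia, the resident macrophages of the brain, had been isolated with CD11b beads from whole brains of WT C57BL/6 female mice without meninges, 3 mice at 5 weeks and 3 at 24 weeks, with 1 RNA-seq library per mouse. The mice received no treatment, and the Het mice of the study were not analysed here. The 5-week and 24-week libraries were sequenced in separate lanes, so no difference below can be told apart from one between lanes.

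The lysosome breaks down what microglia take up, such as dying cells, myelin and synaptic material, with a large set of hydrolases that work at acid pH. The acid is made by the V-ATPase, in which a V1 sector in the cytosol burns ATP and turns a ring of proteolipid subunits in the V0 sector of the membrane, which carries the protons across. Many lysosomal genes hold a short palindrome near their start that the factors TFEB and TFE3 bind, and loss of single hydrolases, their activators or progranulin causes lysosomal storage or neurodegenerative disease.

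Read pairs counted on genes numbered 23198065 to 46434788 per library at 5 weeks and 10410625 to 13554336 at 24 weeks. The lysosomal genes held 1.32% to 1.52% of these counts at 5 weeks and 1.33% to 1.41% at 24 weeks. All 10 microglia markers, Cx3cr1, P2ry12 and Tmem119 among them, were detected, with a summed level of 23095 to 28143 CPM (read pairs scaled to the library total with TMM factors) at 5 weeks and 19344 to 21804 at 24 weeks. The 24-week replicate 3 stood apart from the other libraries in Xist, with 78 counts against 31677 to 59021, while 4 Y-linked genes had 0 counts in every library. The calls that changed when this library was left out are named below.

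Promoters of 3 of the genes are shown for the palindrome CACGTG, an E-box that TFEB and TFE3 bind. The 150 bases before the RefSeq start of Lamp1, the major glycoprotein of the lysosomal membrane, of Mcoln1, the calcium channel of that membrane, and of the proton pump subunit gene Atp6v0b are printed 5′ to 3′ on the strand of the gene, with each E-box in capitals. For Mcoln1 the capitals of the second motif mark the longer TCACGTGA. The positions on GRCm38.p6 are chr8:13159011-13159160 on the plus strand for Lamp1, chr8:3500369-3500518 on the plus strand for Mcoln1 and chr4:117887330-117887479 on the minus strand for Atp6v0b.
Lamp1: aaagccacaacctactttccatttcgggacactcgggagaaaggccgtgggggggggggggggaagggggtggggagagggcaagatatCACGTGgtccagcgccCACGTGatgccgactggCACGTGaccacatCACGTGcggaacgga
Mcoln1: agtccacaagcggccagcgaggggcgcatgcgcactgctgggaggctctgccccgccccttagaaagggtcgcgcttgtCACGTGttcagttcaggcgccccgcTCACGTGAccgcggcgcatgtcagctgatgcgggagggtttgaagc
Atp6v0b: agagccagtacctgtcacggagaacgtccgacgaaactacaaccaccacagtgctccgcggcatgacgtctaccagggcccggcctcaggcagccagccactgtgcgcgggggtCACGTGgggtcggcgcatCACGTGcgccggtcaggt

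A promoter window of 300 bases, 250 before and 50 after the start, was found in RefSeq for 33 of the 40 genes. Both strands were searched, and since CACGTG, TCACGTGA and the form of 10 bases with a further G before and C after are palindromes nested in each other, a match to a longer one is also a match to a shorter. CACGTG lay in the windows of 12 of the 33 genes (36.4%), against 8.09% of the 27025 genes with a window. TCACGTGA lay in 5 of 33 (15.2%), against 1.12% of all genes. The form of 10 bases lay in 0 of 33, against 0.37% of all genes. A raised share was not particular to this set. Among 78 lysosomal genes outside it with a window, the 3 forms lay in 15 (19.2%), 6 (7.69%) and 2 (2.56%). Lamp1 had 4 copies of CACGTG, and Mcoln1, Atp6v0b and Gla had 2 each. In Gla, whose promoter is not shown, both copies were TCACGTGA. Among the genes tested between ages below, CACGTG lay in 0 of the 4 that were higher at 24 weeks, in 3 of the 7 with a window that were lower and in 9 of the 22 with a window that did not pass. The 7 genes without a window were Asah1, Galns, Atp6v0d2, Atp6v1b2, Atp6v1c1, Atp6v1g1 and Atp6v1h.

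Levels were compared between genes per kilobase of exon, as CPM per kb. The lysosomal message was dominated by a few genes. Lgmn, which encodes the cysteine protease legumain, was highest with 1177 ± 155 CPM per kb at 5 weeks and 993 ± 70.0 at 24 weeks (SD, n = 3 each). Psap, which encodes the precursor of the saposins, the activators of sphingolipid hydrolases, had 1099 ± 94.8 and 852 ± 41.4 CPM per kb. At 5 weeks Lgmn and Psap overlapped within their spread, although Lgmn was the higher of them in every 5-week library. Laptm5, which encodes a lysosomal membrane protein of blood and immune cells, followed with 409 ± 96.9 and 477 ± 34.7 CPM per kb, and these 3 genes made up 57.2% of the summed level of the set at 5 weeks and 56.9% at 24 weeks. The next in order were Hexa (298 ± 19.5 and 233 ± 16.5 CPM per kb), Lamp1 (281 ± 14.2 and 223 ± 17.1) and Grn (260 ± 57.6 and 238 ± 17.4). They encode a β-hexosaminidase subunit, a membrane glycoprotein and progranulin. Neighbours among these 3 overlapped within their spread at either age. Within libraries, however, Hexa lay above Lamp1 in every one, and Grn lay above Lamp1 in every 24-week library. The median gene had 31.9 CPM per kb at 5 weeks and 31.4 at 24 weeks.

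At the low end, Atp6v1h, a regulatory subunit of V1, had 5.85 ± 0.842 CPM per kb at 5 weeks and 4.77 ± 0.223 at 24 weeks. Mcoln1 (6.20 ± 1.20 and 6.65 ± 0.102) and Galns (6.99 ± 1.44 and 5.52 ± 0.554) lay just above it and overlapped it within their spread at 5 weeks. The order at this end depends on the length used. All annotated exons together span 9746 bases for Atp6v1h and 7555 for Mcoln1, against longest transcripts of 4829 and 2889. For Galns the 2 lengths are close, at 2650 and 2557 bases. Atp6v0d2, whose V0 subunit is known from osteoclasts, was all but absent, with 4, 4 and 4 counts at 5 weeks and 4, 8 and 0 at 24 weeks, and it was the 1 gene of the set left out of the age test by the filter on low counts. The order of the 40 levels was much the same at both ages, with a Spearman rho of 0.94 across genes that share the same 6 libraries. Within V0, the level of Atp6v0b lay well above that of Atp6v0c at 5 weeks (112 ± 4.77 against 19.0 ± 5.75 CPM per kb), and at 24 weeks the 2 proteolipid genes were closer (66.9 ± 2.60 against 51.1 ± 7.58).

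**Figure D1:**
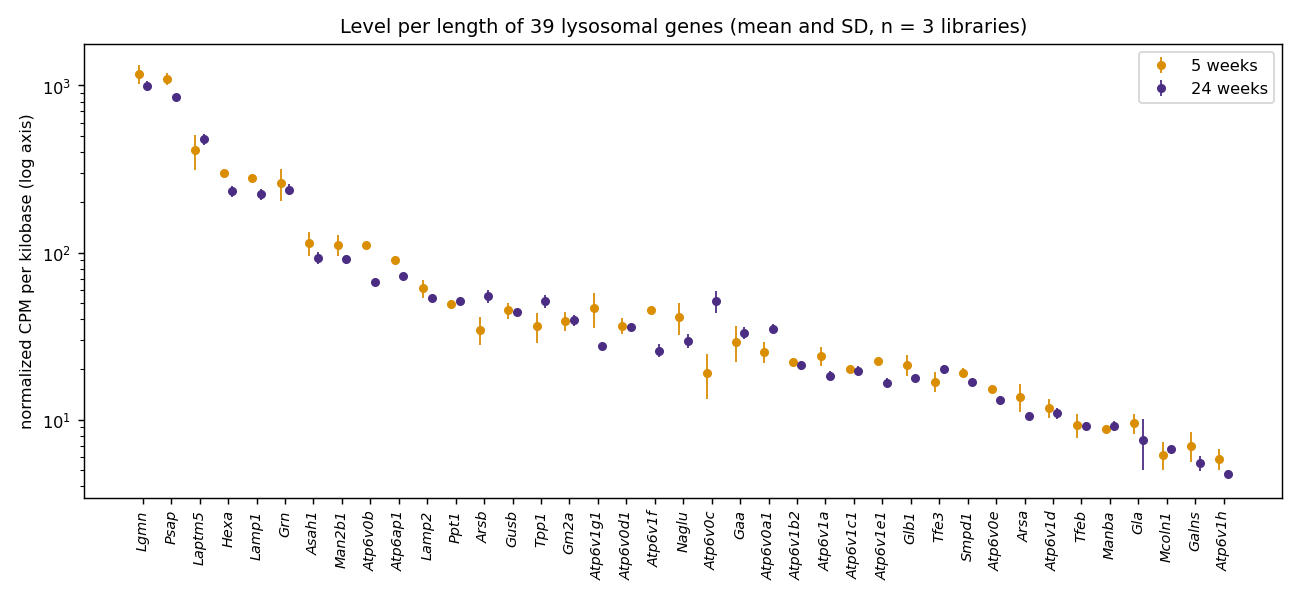
Level of 39 of the lysosomal genes in CPM per kilobase of exon on a log axis, in order of their mean over all 6 libraries, with the mean and SD (n = 3) at 5 and 24 weeks. Lgmn and Psap lie near 1000 at both ages, Atp6v1h is lowest at about 5, and Atp6v0d2, at 0.0482 and 0.108 CPM per kb, is not drawn.

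The comparison between ages asked which lysosomal genes differ between the WT libraries of 5 and 24 weeks. By the study's account its isolation typically gives cells that are mostly, but not only, microglia. Genes of the pump went in both directions. Of its V0 genes 2 rose, while the V0 gene Atp6v0b, 4 V1 genes and the accessory gene Atp6ap1 fell. The rises and falls were 14.3% and 42.9% of the pump genes tested, against 15.5% and 13.3% of all genes. Of these calls, those of Atp6v0c, Atp6v0b, Atp6v1f and Atp6v1g1 alone held in every fit without 1 library. Outside the pump 4 of 25 genes passed (16%, against 28.8% of all genes). Of the 39 genes tested, 4 rose and 8 fell at 24 weeks (edgeR quasi-likelihood test, Benjamini-Hochberg adjusted p under 0.05 over 16157 genes), and 27 did not pass. The 12 that passed were 30.8% of the set, against 28.8% of all genes tested. The shares of all genes were not matched for level. The median of the average log2 CPM was 7.0 in the set and 3.9 over all genes tested. With at least 50 counts required in every library, 3916 of 11227 genes passed, and of the 39 genes 4 rose and 10 fell. By direction, 10.3% of the set rose against 15.5% of all genes, and 20.5% fell against 13.3%. The median log2 fold change, as 24 weeks minus 5 weeks, was -0.19 against 0.00 over all genes tested, and 28 of the 39 values were negative. The changes were small, with 38 of 39 under 2-fold. The 24-week libraries lay above all 5-week libraries for 4 genes and below them for 14, against 23.0% and 22.1% of all genes, so that 46.2% of the set had no overlap against 45.1% of all genes. Scaled by library totals only, which moved the median of all genes by 0.10 on the log2 scale, 5 genes rose and 4 fell, against 20.0% and 9.07% of all genes, with the calls of Naglu, Hexa, Atp6v1a and Atp6ap1 lost and Tfe3 called higher.

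**Figure D2:**
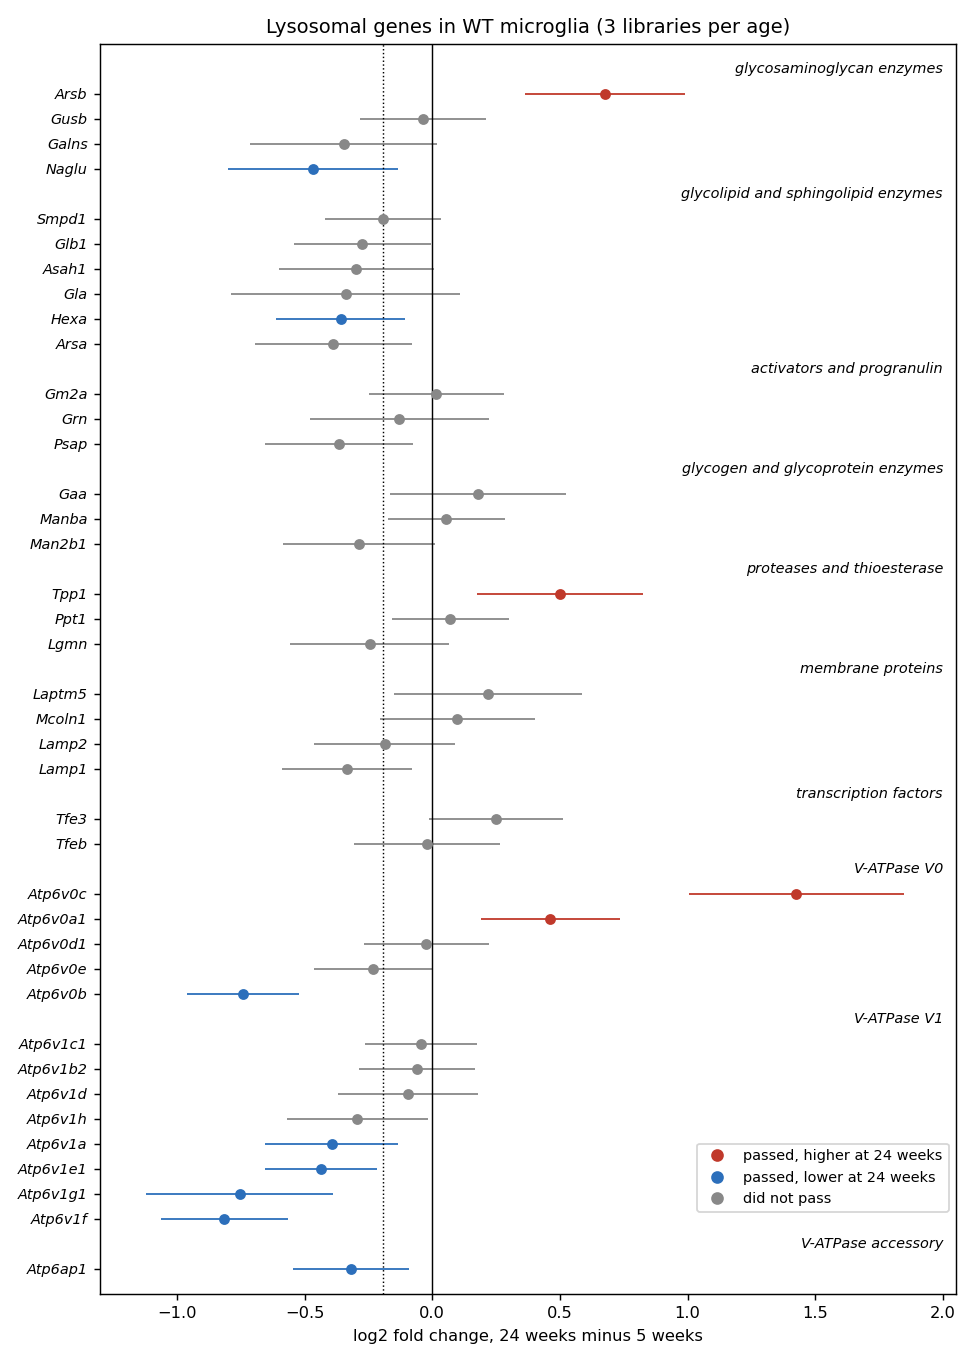
Log2 fold change between ages (24 weeks minus 5 weeks) of the 39 lysosomal genes tested, grouped by role, with 95% confidence intervals from the edgeR fit. The solid line marks 0 and the dotted line the median of the set, -0.19. Atp6v0c stands alone on the right at 1.43, and all 8 V1 genes lie left of 0, of which Atp6v1b2 and Atp6v1c1 were positive when scaled by library totals only.

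Other cell populations moved with age in the same libraries. Border macrophage markers fell in 7 of 8 cases, with a summed level of 1031 to 1362 CPM at 5 weeks and 529 to 634 at 24 weeks. Endothelial markers rose in 9 of 10 cases (254 to 301 against 568 to 596 CPM) and mural markers in 6 of 8 (148 to 182 against 278 to 306). Of the 10 microglia markers, 1 rose and 4 fell. Markers of astrocytes fell in 2 of 6 cases (400 to 575 against 340 to 386 CPM), of oligodendrocytes in 4 of 7 (1755 to 2994 against 1069 to 2926), while of neurons 3 of 10 rose and 2 fell (108 to 149 against 65.2 to 160) and of choroid plexus 1 of 6 rose (5239 to 7920 against 4854 to 6223). Of 12 neutrophil and monocyte markers 10 were tested, and 0 passed with edgeR, with DESeq2 or at an unadjusted p under 0.05 (564 to 863 against 712 to 868 CPM). Csf3r alone made up most of this sum in every library (438 to 658 against 621 to 643 CPM). The sum hides the spread of other markers between libraries, such as S100a8 (30.7 to 87.6 against 14.2 to 50.6 CPM). No marker of any list was at 0 in all 6 libraries. The part of these cell populations in the lysosomal values was not tested, and in bulk RNA fewer cells of a type and less RNA per cell cannot be told apart. Set against the summed microglia markers, the summed level of the 40 lysosomal genes was 0.584, 0.580 and 0.578 at 5 weeks and 0.640, 0.648 and 0.627 at 24 weeks. The ratio was higher in all 3 libraries at 24 weeks, but the lysosomal sum was not. That sum overlapped between ages (13389 to 16273 against 12530 to 13958 CPM). The marker sum below it in the ratio was lower in all 3 libraries at 24 weeks (23095 to 28143 against 19344 to 21804 CPM).

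The V-ATPase held 8 of the 12 genes that passed. Of its 14 genes tested 2 rose and 6 fell, or 14.3% and 42.9% against 15.5% and 13.3% of all genes, with a median log2 fold change of -0.26. Atp6v0c (chr17:24163866-24169702), which encodes the main proteolipid of the rotating V0 ring, showed the largest change of the set. Its level was 51.2, 54.9 and 86.6 CPM at 5 weeks and 150, 169 and 201 CPM at 24 weeks. Every 24-week library lay above every 5-week library, and the rise was 2.69-fold (log2 fold change 1.43, SE 0.19, edgeR adjusted p = 0.000413). Atp6v0b (chr4:117884326-117887333), whose product is the other proteolipid of the same ring, went the opposite way. It had 225, 222 and 240 CPM at 5 weeks and 143, 137 and 132 CPM at 24 weeks. The ages were far apart and the spread within each was narrow, and the log2 fold change was -0.74 (SE 0.10, edgeR adjusted p = 0.000414). The ratio of Atp6v0c to Atp6v0b, in CPM, was 0.228, 0.247 and 0.360 at 5 weeks and 1.05, 1.23 and 1.52 at 24 weeks.

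Atp6v0a1, the a subunit that couples the ring to proton flow and is known from neurons and many other cells, had 143, 167 and 191 CPM at 5 weeks and 215, 243 and 232 CPM at 24 weeks. It rose 1.38-fold (log2 fold change 0.46, SE 0.12, edgeR adjusted p = 0.0176), with no overlap between ages, but did not pass without 5-week replicate 1 or 2 or without 24-week replicate 2 or 3 (adjusted p 0.0542 to 0.0937), or once a trend on transcript length and GC content was removed (0.0516). Atp6v0d1, the subunit that joins ring and central stalk, had 60.1, 62.3 and 73.6 CPM against 66.5, 62.5 and 63.8 and a log2 fold change of -0.02 (95% confidence interval -0.27 to 0.22). Its ages overlapped, and its sign depended on 5-week replicate 3, without which the value was 0.08. Atp6v0e, a small V0 subunit, did not pass (-0.23, adjusted p = 0.126).

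**Figure D3:**
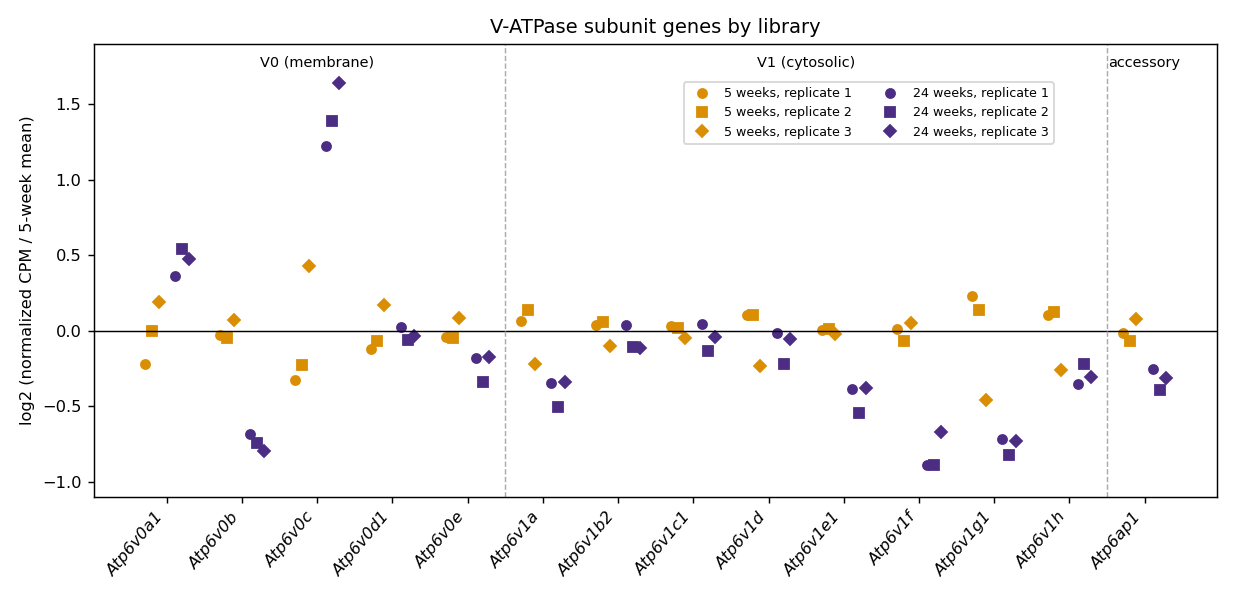
Level of the V-ATPase genes in each library as log2 of its ratio to the 5-week mean of the gene, one point per library, for 3 libraries at 5 weeks and 3 at 24 weeks. Atp6v0c and Atp6v0a1 lie above their 5-week points at 24 weeks, while Atp6v0b, Atp6v1a, Atp6v1e1, Atp6v1f, Atp6v1g1 and Atp6ap1 lie below theirs.

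In V1 all 8 genes had a negative log2 fold change, from -0.81 to -0.04. Atp6v1b2 and Atp6v1c1 turned positive when scaled by library totals only. Of the 8 genes 4 fell (50%, against 13.3% of all genes tested). Atp6v1f (chr6:29467718-29470512), a small subunit of the central stalk, had 48.9, 46.3 and 50.2 CPM at 5 weeks and 26.2, 26.1 and 30.5 CPM at 24 weeks. Atp6v1g1 (chr4:63544772-63550750), part of the outer stalks, had 62.0, 58.0 and 38.3 CPM against 32.1, 29.9 and 31.8 CPM. In both genes the 24-week libraries lay below all 5-week libraries, although 5-week replicate 3 came close for Atp6v1g1. The log2 fold changes were -0.81 (SE 0.11, edgeR adjusted p = 0.000503) and -0.75 (SE 0.17, edgeR adjusted p = 0.00687). Atp6v1e1, the partner of Atp6v1g1 in the outer stalks, had 93.2, 93.6 and 91.3 CPM at 5 weeks and 70.9, 63.5 and 71.2 CPM at 24 weeks. This was the tightest gene of the set at 5 weeks, and it fell by 0.44 on the log2 scale (SE 0.10, edgeR adjusted p = 0.00811), with an adjusted p of 0.0523 without 24-week replicate 2.

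Atp6v1a, the catalytic subunit that binds ATP, had 152, 160 and 125 CPM at 5 weeks and 115, 103 and 115 CPM at 24 weeks. It fell by 0.39 on the log2 scale (SE 0.12, edgeR adjusted p = 0.0292), a call lost without each library in turn except 5-week replicate 3 (adjusted p 0.0638 to 0.119). Atp6v1h, which regulates V1, had 61.3, 62.3 and 47.6 CPM against 44.6, 48.9 and 46.1. The ages overlapped through 5-week replicate 3, and the difference did not pass (-0.29, adjusted p = 0.104), though it did without that library (-0.40, adjusted p = 0.00382). Atp6v1b2, the B subunit of the ATP-binding head, Atp6v1c1, which links head and membrane, and Atp6v1d, of the central stalk, had log2 fold changes of -0.06, -0.04 and -0.09 with adjusted p of 0.695, 0.78 and 0.606. Their 95% confidence intervals ran from -0.29 to 0.17, from -0.26 to 0.18 and from -0.37 to 0.18, although Atp6v1c1 passed as lower with the trend on length and GC content removed (-0.25, adjusted p = 0.0375). Atp6ap1, an accessory protein that helps assemble the pump, had 270, 261 and 289 CPM at 5 weeks and 230, 208 and 219 CPM at 24 weeks. All 24-week libraries were lower, and the fall was 0.32 on the log2 scale (SE 0.10, edgeR adjusted p = 0.0397), a call lost without 5-week replicate 1 and without each 24-week library in turn (adjusted p 0.0767 to 0.147).

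The pump genes that fell most had the shortest transcripts. The longest annotated transcripts of Atp6v1f, Atp6v0b and Atp6v1g1 are 806, 1000 and 1135 bases, and these were the 3 V-ATPase genes with at most 1200 bases. Among all genes tested with transcripts of at most 1200 bases, 29.0% fell, with a median log2 fold change of -0.32. Across the 39 genes, length and log2 fold change had a Spearman rho of 0.41, and across the 15959 genes tested with a known length it was 0.33, with all values from the same 6 libraries. When the trend on length and GC content across all genes was removed, the 3 genes remained lower, with log2 fold changes of -0.62 for Atp6v1f (edgeR adjusted p = 0.000524), -0.49 for Atp6v0b (0.000915) and -0.50 for Atp6v1g1 (0.0146), while Atp6v0c remained at 1.44 (0.000136). With the trend removed 3 genes of the set were higher and 16 lower, against 15.2% and 20.8% of all genes. The call of Atp6v0a1 was lost, and Glb1, Arsa, Asah1, Psap, Man2b1, Lamp1, Atp6v1c1 and Atp6v1h passed as lower, with adjusted p from 0.00193 to 0.0442. Of the uniquely placed pairs, 39.98% to 41.84% matched no annotated exon at 5 weeks, against 48.69% to 54.92% at 24 weeks. The part of this difference in the length trend or in the changes of single genes was not tested. Nor was the part of library preparation, lane or RNA integrity in the length trend.

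**Figure D4:**
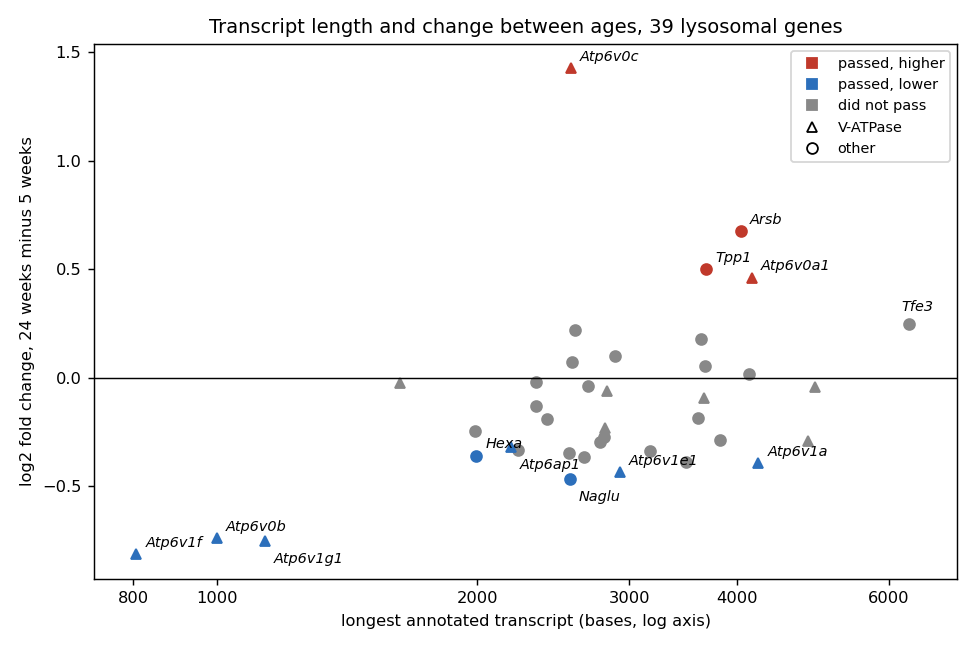
Log2 fold change between ages against the length of the longest annotated transcript (bases, log axis) for the 39 lysosomal genes tested, with triangles for the V-ATPase, circles for the other genes and colour for the call. The 3 shortest genes, Atp6v1f, Atp6v0b and Atp6v1g1, lie at the lower left, and Atp6v0c lies at the top with a transcript of 2567 bases.

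Several of the genes share sequence with other annotated genes, and pump genes have processed copies elsewhere in the genome. Atp6v0c matched 2 other annotated genes at 90% identity or more, the longest over 389 bases at 97.2%, and Atp6v1g1 matched 4, of which Gm13453 shared 357 bases at 99.4%. Gm13453 itself had 599, 374 and 669 counts at 5 weeks and 138, 105 and 102 counts at 24 weeks, against libraries of unequal depth. Atp6v1f and Atp6v1a each matched 1 copy, over 202 bases at 98.5% and 296 bases at 90.2%. Pairs placed at several positions were not counted, and they were 32.7% to 35.5% of all rows at 5 weeks against 22.5% to 23.5% at 24 weeks, so the values of these 4 genes are uncertain to the extent that their reads were lost unequally, which was not tested. The same holds for Mcoln1, which matched 107 genes at 90% identity or more, over at most 411 bases. The longest matches of Arsb (1726 bases) and Arsa (423 bases), both at 100%, are to genes on the opposite strand of the same locus, which the stranded counting kept apart and which had 0 to 3 and 18 to 34 counts per library.

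Outside the pump 25 genes were tested, of which 2 rose, 2 fell (8.0% each, against 15.5% and 13.3% of all genes) and 21 did not pass, with a median log2 fold change of -0.19. Among the enzymes that take apart glycosaminoglycans, the sugar chains of proteoglycans, Arsb (chr13:93771630-93943016), arylsulfatase B, rose. It had 181, 190 and 254 CPM at 5 weeks and 366, 310 and 324 CPM at 24 weeks. The ages did not overlap, and the rise was 1.60-fold (log2 fold change 0.68, SE 0.14, 95% confidence interval 0.36 to 0.99, edgeR adjusted p = 0.00547). Naglu, the N-acetylglucosaminidase of heparan sulfate, had 105, 87.9 and 135 CPM at 5 weeks and 79.3, 71.6 and 86.3 CPM at 24 weeks. It fell by 0.47 on the log2 scale (SE 0.15, edgeR adjusted p = 0.0400) with little room between the ages, and the call was lost without each library in turn except 5-week replicate 2 (adjusted p 0.0559 to 0.144). Without 5-week replicate 3 the log2 fold change of Naglu was -0.28, and the call was also lost with library totals only (adjusted p = 0.071) and with thinned 5-week counts (0.052). Galns, a sulfatase of keratan and chondroitin sulfate, had 17.6, 15.3 and 22.7 CPM against 13.1, 14.7 and 16.1 (-0.35, adjusted p = 0.141). Gusb, β-glucuronidase, had 198, 187 and 231 CPM against 202, 206 and 192. Its ages overlapped, with a log2 fold change of -0.04 (95% confidence interval -0.28 to 0.21) that was 0.07 without 5-week replicate 3.

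The 6 enzymes of glycolipid and sphingolipid breakdown all had negative log2 fold changes, from -0.39 to -0.19. Of these, 1 fell (16.7%, against 13.3% of all genes tested). Hexa, the α subunit of β-hexosaminidase, which degrades GM2 ganglioside, had 615, 550 and 620 CPM at 5 weeks and 494, 429 and 469 CPM at 24 weeks. Every 24-week library was lower, and the fall was 0.36 on the log2 scale (SE 0.11, edgeR adjusted p = 0.0378), a call likewise lost without 5-week replicate 1 and without each 24-week library in turn (adjusted p 0.0701 to 0.148). Arsa, arylsulfatase A, which degrades the sulfatides of myelin, had 48.0, 42.8 and 61.1 CPM against 41.1, 38.1 and 37.1 CPM. Its ages did not overlap but it did not pass (-0.39, adjusted p = 0.0578), and without 5-week replicate 2 it did (adjusted p = 0.0242). Without 5-week replicate 3 the log2 fold change of Arsa was -0.22 (adjusted p = 0.0805), and without one of the other libraries its adjusted p reached 0.151. The ratio of the 2 arylsulfatases, Arsb to Arsa in CPM, was 3.77, 4.43 and 4.16 at 5 weeks and 8.90, 8.13 and 8.72 at 24 weeks.

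Asah1, acid ceramidase, had 440, 406 and 316 CPM at 5 weeks and 341, 290 and 315 CPM at 24 weeks. The ages overlapped through 5-week replicate 3, and the difference did not pass (-0.30, adjusted p = 0.129), though it did without that library (-0.42, adjusted p = 0.00508). Gla, α-galactosidase A, had 32.0, 35.1 and 26.4 CPM against 19.6, 20.2 and 34.4 CPM. The 24-week replicate 3, the library that stood apart in Xist, lay among the 5-week values, and the log2 fold change was -0.34 with it (adjusted p = 0.237) and -0.65 without it (adjusted p = 0.0176). Gla lies on the X chromosome, as do Lamp2, Tfe3 and Atp6ap1. This library was the highest of its age for Gla, Lamp2 and Tfe3 but not for Atp6ap1, and a link to Xist was not tested. Glb1, β-galactosidase, and Smpd1, acid sphingomyelinase, did not pass (-0.28, adjusted p = 0.114, and -0.19, adjusted p = 0.186), although both were lower in all 3 libraries at 24 weeks. Glb1 shares 165 bases of exon with Tmppe on the same strand.

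Of the enzyme activators, Psap came closest to a call. It had 3101, 2723 and 3222 CPM at 5 weeks and 2469, 2267 and 2278 CPM at 24 weeks. The ages did not overlap, with a log2 fold change of -0.37 (SE 0.13, edgeR adjusted p = 0.0576), and leaving out 5-week replicate 3 (0.0378) or 5-week replicate 2 (0.0446) brought it past the threshold. Psap also passed with DESeq2 (adjusted p = 0.0105), with no filter (0.0394), with the stricter filter (0.0451) and with the length and GC trend removed (0.0371). Gm2a, the activator that presents GM2 ganglioside to β-hexosaminidase, had 155, 144 and 185 CPM against 177, 155 and 157, with a log2 fold change of 0.02 (95% confidence interval -0.25 to 0.28). Grn, progranulin, a secreted and lysosomal protein highly expressed in microglia, had 855, 734 and 1125 CPM against 881, 762 and 839. The ages overlapped for both, and the log2 fold change of Grn was -0.13 (adjusted p = 0.576) with 5-week replicate 3 and 0.07 without it.

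Among enzymes of glycogen and glycoprotein breakdown 0 of 3 passed with edgeR or DESeq2, and 0 had an unadjusted p under 0.05. Gaa, the acid α-glucosidase of glycogen, had 119, 122 and 179 CPM at 5 weeks and 159, 146 and 171 CPM at 24 weeks. Its log2 fold change was 0.18 (adjusted p = 0.417), and without the high 5-week replicate 3 it was 0.41 (adjusted p = 0.00435). Man2b1, lysosomal α-mannosidase, had 883, 767 and 1030 CPM against 788, 714 and 696 (-0.29, adjusted p = 0.136). Its log2 fold change was -0.16 without 5-week replicate 3, and it passed as lower with the length and GC trend removed (-0.35, adjusted p = 0.0292). Manba, β-mannosidase, had 65.4, 59.5 and 60.2 CPM against 68.4, 63.7 and 60.1 (0.05, adjusted p = 0.726). The ages overlapped in all 3 genes.

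Tpp1, the tripeptidyl peptidase whose loss causes a childhood form of neuronal ceroid lipofuscinosis, rose. It had 161, 168 and 232 CPM at 5 weeks and 289, 239 and 266 CPM at 24 weeks. The lowest 24-week library lay just above the highest 5-week library, and the rise was 1.41-fold (log2 fold change 0.50, SE 0.15, edgeR adjusted p = 0.0275), a call lost without 5-week replicate 1 or 2 or without 24-week replicate 1 or 3 (adjusted p 0.0717 to 0.128). Ppt1, a palmitoyl-protein thioesterase linked to another form of the same disease, did not pass (0.07, 95% confidence interval -0.16 to 0.30). Lgmn had 2651, 2424 and 3130 CPM against 2446, 2128 and 2347, with overlapping ages and a log2 fold change of -0.25 (adjusted p = 0.219).

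**Figure D5:**
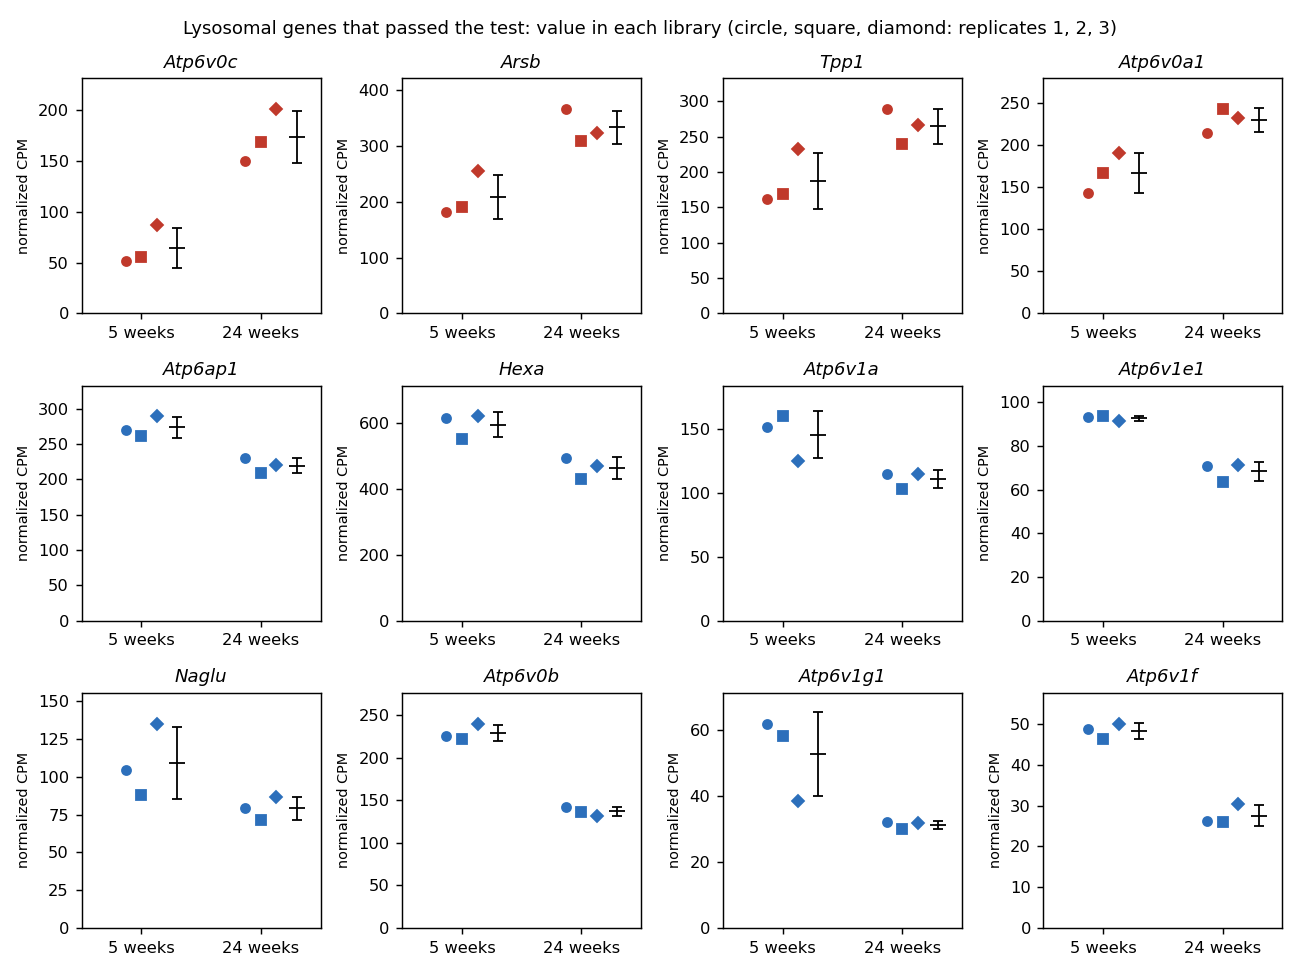
Normalized CPM of the 12 lysosomal genes that passed, one panel per gene with its own axis from 0, with one point per library and, beside the points of each age, the mean and SD (n = 3). The points of the 2 ages do not overlap in any panel, and the gap is widest relative to the level for Atp6v0c.

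Of the 4 membrane proteins 0 passed with edgeR, while 1 passed with DESeq2 and 1 had an unadjusted p under 0.05. That gene, Lamp1, had 754, 713 and 789 CPM at 5 weeks and 636, 546 and 606 CPM at 24 weeks. The ages did not overlap, and the log2 fold change was -0.34 (SE 0.12, edgeR adjusted p = 0.0509), with an adjusted p of 0.0295 without 5-week replicate 3 and of 0.0185 with DESeq2. Lamp2, its partner glycoprotein, which is also needed for autophagy, had 611, 644 and 501 CPM against 516, 491 and 536 (-0.19, adjusted p = 0.287). Laptm5 had 1368, 1311 and 1973 CPM against 1945, 1684 and 1787 (0.22, adjusted p = 0.353). In both genes 5-week replicate 3 lay with the 24-week libraries, and without it Lamp2 was lower (-0.28, adjusted p = 0.0231) and Laptm5 higher (0.44, adjusted p = 0.00648). Mcoln1 had 44.7, 39.0 and 56.8 CPM against 50.5, 50.8 and 49.3 (0.10, adjusted p = 0.626), and its sign was negative without 5-week replicate 2 (-0.03) while it passed as higher without 5-week replicate 3 (0.27, adjusted p = 0.0365).

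Of the 2 transcription factors 0 passed with edgeR or DESeq2, and 0 had an unadjusted p under 0.05. Tfeb had 48.3, 47.5 and 63.1 CPM at 5 weeks and 55.2, 50.4 and 51.0 CPM at 24 weeks, with a log2 fold change of -0.02 (95% confidence interval -0.31 to 0.26) that was 0.13 without 5-week replicate 3. Tfe3 had 140, 149 and 181 CPM against 181, 179 and 199 CPM. Its ages overlapped through the same library, with a log2 fold change of 0.25 (adjusted p = 0.143) and 0.37 without that library (adjusted p = 0.00515). These are transcript levels and do not measure how much of either factor was in the nucleus.

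The 5-week replicate 3, the deepest library, stood apart from the other 5-week libraries. It was the highest of the 5-week libraries in 27 and the lowest in 10 of the 39 genes, with a median absolute log2 difference from the other two of 0.32, against 0.06 to 0.20 for the other 5 libraries. The difference of each library from the other 2 of its age was set against the GC content of the transcript. Spearman rho across the 39 genes was -0.56, -0.71 and 0.67 in 5-week replicates 1, 2 and 3. The 3 differences within an age depend on each other, so 1 skewed library can set all 3 values. In the 24-week libraries rho lay between -0.09 and 0.09. The median coefficient of variation was 13.2% at 5 weeks and 6.32% at 24 weeks. With 5-week replicate 3 left out, the set had 8 genes that rose and 12 that fell, against 20.3% and 17.7% of all genes tested. Without the 24-week replicate 3 instead, 2 rose and 5 fell, against 11.7% and 9.02%. The calls of Atp6v0a1 (adjusted p = 0.0573), Tpp1 (0.0717), Naglu (0.0559), Hexa (0.0935), Atp6v1a (0.0638) and Atp6ap1 (0.108) were lost there, and Gla passed as lower. Arsb, Atp6v0b, Atp6v0c, Atp6v1f and Atp6v1g1 passed in the same direction in all 6 fits without 1 library and in the 8 other alternatives, and the other 7 calls did not hold in all of them.

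The wider lysosomal pathway was read from a further 95 genes, of which 89 were tested. Of these 11 rose, 19 fell and 59 did not pass, with a median log2 fold change of -0.07. The shares were 12.4% and 21.3%, against 15.5% and 13.3% of all genes, and 33.7% passed in either direction against 28.8%. Among 33 other hydrolases and their cofactors 4 rose (12.1%) and 8 fell (24.2%). The rises with the smallest p were Galc, the galactosylceramidase of myelin lipid (0.81, adjusted p = 0.00096), Ids, a sulfatase of heparan and dermatan sulfate (0.56, adjusted p = 0.00334), and Ppt2, a thioesterase (0.55, adjusted p = 0.0268). The falls were led by Rnaset2b and Rnaset2a, near-identical acid ribonuclease genes whose reads cannot be cleanly divided (-1.07 and -0.86, adjusted p = 0.000319 and 0.000739), and by Npc2, the cholesterol carrier of the lysosome lumen (-0.53, adjusted p = 0.00558). Of these, Ppt2 lost its call in 3 of the 6 fits without 1 library.

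Of 26 other membrane proteins tested 3 rose and 3 fell (11.5% each). Tpcn1, a two-pore cation channel, rose (1.10, adjusted p = 0.000154), as did Slc29a3, a nucleoside transporter (0.64, adjusted p = 0.009), and Abca2, a lipid transporter (0.53, adjusted p = 0.0264). Lamp5 (-1.95, adjusted p = 0.0271), Laptm4a (-0.39, adjusted p = 0.0436) and Cln3 (-0.37, adjusted p = 0.0476) fell, and of these 6 genes Tpcn1 alone passed in every fit without 1 library. Of 5 other V-ATPase genes tested 0 rose and 2 fell with edgeR, and these were Atp6ap2, an accessory subunit (-0.58, adjusted p = 0.0134), and Tcirg1, the a3 subunit (-0.49, adjusted p = 0.0389). Tcirg1 and Atp6v0a1 encode alternative forms of the same subunit and had values of opposite sign, and the calls of Atp6ap2 and Tcirg1 were lost in 1 and 3 of the 6 fits without 1 library.

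Of the 9 genes of the mannose-6-phosphate route, by which new hydrolases reach the lysosome, 3 rose and 3 fell (33.3% each). The enzyme that builds the tag was split, since its α/β subunit precursor gene Gnptab rose (0.71, adjusted p = 0.00114) and its γ subunit gene Gnptg fell (-0.46, adjusted p = 0.0192). The adaptors Gga3 (0.48, adjusted p = 0.0278) and Gga1 (0.45, adjusted p = 0.041) rose, while Nagpa, which uncovers the tag (-0.41, adjusted p = 0.0366), and the receptor M6pr (-0.37, adjusted p = 0.0411) fell. Of these 6 calls only that of Gnptab held in all 6 fits without 1 library. Among 16 genes of the MiT factors, Rag GTPases and Ragulator, which tie the lysosome to mTORC1, 1 rose (6.25%) and 3 fell (18.8%). Rraga, a Rag GTPase, rose (0.95, adjusted p = 0.000517), while Tfec, an MiT factor of macrophages (-1.54, adjusted p = 0.00527), and the Ragulator subunits Lamtor4 (-0.97, adjusted p = 0.00105) and Lamtor2 (-0.68, adjusted p = 0.0104) fell, and of these 4 calls that of Lamtor2 was lost in 2 of the 6 fits without 1 library.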

How the data were processed

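From read pairs trimmed with trim_galore the authors made TopHat2 2.0.13 alignments to GRCm38, counted the uniquely placed pairs of each Ensembl gene with HTSeq 0.6.1 in its reverse-stranded mode, and deposited raw counts, without normalization, for 38924 genes in each of 6 libraries. The 5 rows that name no gene held 60.6% to 65.8% of each table's total and were left out. Symbols, positions and lengths are those of GENCODE mouse release 21 (GRCm38; 37607 identifiers matched), and promoters came from RefSeq on GRCm38.p6. Levels are TMM-normalized CPM, per kilobase of the union of exons where genes are compared.

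For the ages, a quasi-likelihood fit with age as its term was made in edgeR 4.0.16 (R 4.3.3) on the 16157 genes that filterByExpr kept, with Benjamini-Hochberg adjustment over them. Fold changes are 24 weeks over 5 weeks, and standard errors were taken from the F statistic (absolute log2 fold change over its square root). The script was tested on simulated data. The genes and lists were chosen with earlier results of these data known, so counts over the set and its larger groups are given with the shares of all genes, and no set was tested. Every gene of the set is named, with values in each library for those that passed, those highest or lowest per length in their role group, and those whose call or sign changed when a library was left out. Of each list of other lysosomal genes up to 3 genes per direction are named, by smallest p. Alternatives were DESeq2 1.42.0 and its size factors, library totals only, no filter or at least 50 counts in every library, a trend on length and GC content fitted with mgcv 1.9.3 and removed, 5-week counts thinned to the median 24-week total of 12755262, the replicate number as a block, and each library left out. Where 1 library is left out, 2 and 3 libraries per age remain. The p-values measure the spread between 3 mice per age within 1 lane.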

Additional observations from a re-analysis of the deposited data

How the results depend on the processing

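Of the 39 genes tested, the number higher at 24 weeks ranged from 2 to 8 and the number lower from 3 to 12 over the 6 fits that left out 1 library, against 4 and 8. Over the same 6 fits the genes that passed in either direction, among all genes tested, ranged from 2836 to 6042, against 4646. The number lower was 4 with library totals only, a scaling that moved the median of all genes by 0.10 (log2), and 16 with the trend on length and GC content removed. Of all genes, 9.07% and 20.8% were lower under these 2 settings, against 13.3%. The number was 10 with DESeq2 and with the stricter filter and 11 with no filter. Under these 3 settings 4686 of 16157, 3916 of 11227 and 5149 of 24342 genes passed in either direction. Among the 89 other lysosomal genes, 32 were lower with the trend removed, against 19, beside the same shift over all genes. Without 1 library the number higher among them ranged from 5 to 22 and the number lower from 8 to 24. The median level per kilobase ranged from 28.3 to 34.1 at 5 weeks and from 30.1 to 32.6 at 24 weeks without 1 library. The causes were not tested.

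The replicate numbers are only labels, and same-numbered libraries did not deviate together (correlations 0.07, 0.09 and -0.05). With the replicate block, 4 genes were higher and 5 lower, and the calls of Hexa, Atp6v1a and Atp6ap1 were lost.

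Of 546 gene values under the alternatives, 464 kept their direction and side of the threshold, 36 lost a call, 28 gained one and 18 changed sign, of which 0 were past the threshold in either fit with edgeR. Library totals only gave 0.062 for Gusb, 0.079 for Tfeb, 0.076 for Atp6v0d1, 0.034 for Atp6v1b2 and 0.052 for Atp6v1c1. The trend removed gave -0.11 for Gm2a, -0.025 for Manba, -0.020 for Tfe3 and 0.14 for Atp6v0d1, and no filter gave -0.022 for Gm2a. Without 1 library the log2 fold change ranged from -0.12 to 0.066 for Gusb, from -0.072 to 0.13 for Gm2a, from -0.27 to 0.067 for Grn, from -0.028 to 0.27 for Mcoln1, from -0.11 to 0.13 for Tfeb and from -0.091 to 0.080 for Atp6v0d1.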
